A study of Homo sapiens with 12 samples.

Results

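The histone genes of HK2 cells were read as messenger RNA in 12 libraries. The members were taken from the 58278 listed genes by symbol, as those whose name starts with HIST1H, HIST2H, HIST3H, HIST4H, H1F, H2AF, H2BF or H3F, without names that end in P or in P and digits. The symbols are those of the deposited tables. This gave 110 members of the 123 genes with such a start. They were 76 clustered genes, 19 variant genes, 14 genes whose name ends in PS and a number, and the antisense gene H1FX-AS1. The name rule did not take out every pseudogene, as 3 clustered members are annotated as pseudogenes in GENCODE 44. The rule used symbols alone, but it was set with earlier results of these data known.

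HK2 is a line of human proximal tubule epithelial cells immortalised with viral genes. Cells received 5 ng/mL TNF-α during 3 h, and sodium propionate at 15 mM or butyrate at 3 mM, each of these short-chain fatty acids (SCFAs) for 24 h. The 6 groups, of 2 libraries each, were untreated cells (Ctrl), TNF-α alone (TN), propionate or butyrate before TNF-α (PRTN, BUTN), and propionate or butyrate after it (TNPR, TNBU). The doses of the 2 SCFAs differed, and cells kept for a further 24 h after TNF-α without an SCFA were not analysed here, so the added time and the SCFA cannot be told apart in TNPR and TNBU. All groups share the line and its medium, and no group without TNF-α received an SCFA.

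DNA in the nucleus is wound around octamers of the core histones H2A, H2B, H3 and H4, and the linker histone H1 closes the turn. Most core and linker histone genes lie in clusters, are transcribed in S phase, and give messenger RNAs that end in a stem-loop bound by SLBP in place of a poly(A) tail. The variant, or replacement, histones are made throughout the cell cycle from single genes outside these clusters, with ordinary polyadenylated messenger RNAs. Since the libraries were made from poly(A)-selected RNA, clustered genes were read only as far as their transcripts carried a poly(A) tail, and the values below are not their total messenger RNA.

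The stem-loop is shown because it separates both kinds of gene. The histone stem-loop consensus was searched for on the coding strand within 100 bases after the stop codon. It was found in 66 of 67 clustered members that have an annotated stop codon (98.5%), in 1 of 19 variants (5.26%) and in 5 of 19838 other protein-coding genes (0.0252%). Capitals mark the paired stem and lower case the loop, in the GRCh38 genome.
HIST1H1C, chr6:26055744-26055759, minus strand: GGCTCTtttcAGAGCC
HIST1H2BK, chr6:27146366-27146381, minus strand: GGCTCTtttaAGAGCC
H2AFX, chr11:119094898-119094913, minus strand: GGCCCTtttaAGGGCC
The form of HIST1H1C was also that of HIST1H2BG, HIST1H3H, HIST3H2A and HIST3H2BB, and 36 clustered members carried it. H2AFX, which encodes the H2A.X that is phosphorylated around DNA breaks, was the variant with a stem-loop. Its furthest annotated transcript end lies 1089 bases past the stop codon along the genome, beyond the stem-loop.

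The libraries held between 27269986 and 33851130 counts, and 3 counts stood for 0.0886 to 0.11 CPM (counts scaled to a common library total). All levels below are CPM scaled with TMM factors (weights that correct for the composition of a library). Of the tubular markers, KRT8, KRT18, PAX8 and GGT1 were expressed in every group, LRP2 was at 0 in Ctrl and TN, ANPEP was at 0 in TN, and SLC34A1 stayed at or under 0.0746 CPM on average in each group. Against TN, 6 or 7 of the 10 tubular markers were called higher and 2, PAX8 and GGT1, lower in each SCFA group. Of all genes, 23.1% to 25.0% were called higher and 14.8% to 16.9% lower in these comparisons. PAX8 was at 403 CPM on average in TN and 131 to 158 in the SCFA groups, and GGT1 at 194 and 63.9 to 72.4. The 4 endothelial markers were called higher in all 4 SCFA groups, with a summed level of 0.149 to 0.287 CPM in TN and 2.26 to 3.84 CPM in the SCFA groups. Of the 8 leukocyte markers, 3 or 4 of 5 tested were called higher, with a sum of 1.19 to 1.38 CPM in TN and 3.2 to 6.23 CPM in the SCFA groups, while MS4A1 was at 0 in every library and CD3E and PTPRC were under 0.1 CPM on average in each group. Of 6 germ line markers, 2 were tested and neither was called, and the sum was 10.6 to 16.2 CPM over all libraries, nearly all of it ZP3. The part of other cells' RNA in the results below was not tested.

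Histone messenger RNA in these libraries was almost wholly that of variants. The clustered members together came to 0.773% to 1.17% of the CPM of clustered and variant genes, summed within each library. The sum over the 76 clustered genes was 16.4 ± 1.48 CPM (SD, n = 2) in TN and 21.1 ± 2.19 in PRTN. It was 16.8 ± 0.0707 in BUTN, 16.2 ± 0.424 in TNPR and 15.9 ± 2.26 in TNBU, near that of TN. The sum over the 19 variants was 1810.5 ± 19.1 in TN and 1907 ± 11.3 in PRTN. On average it was 1946 in BUTN, 1787 in TNPR and 1864 in TNBU. No clustered member reached a mean of 5 CPM in any group, and 8 reached 1 CPM. Of the 10 variants over 1 CPM, every one was over 5 CPM.

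A filter on low counts left 61 members for the test, 45 clustered, 14 variant, HIST1H3PS1 and H1FX-AS1. A gene was called at a change over 1.5-fold with an adjusted p under 0.05 (limma-voom, Benjamini-Hochberg over 24342 genes). Of the members left out, 31 were clustered and 5 variant, and 14 of all 110 were at 0 in every library. A low gene could pass the filter through the group where it was high, so counts over the tested members describe them and support nothing further.

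With TNF-α alone no histone gene was called. In TN vs Ctrl 0 of 61 tested members were called higher, with 0.764% of all genes, and 0 lower, with 0.534% of all genes. At an unadjusted p under 0.05, 5 members differed with limma-voom, 4 with the quasi-likelihood test of edgeR and 3 with DESeq2, and neither of the latter called any. The share of all genes at that threshold is not given here. The variant with the largest of these differences, H1FX, was at 60.4 and 63.4 CPM for Ctrl and 48.5 and 53.1 CPM for TN, which is -0.28 on the log2 scale (standard error 0.09, limma-voom adjusted p = 0.108).

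With either SCFA, given before or after TNF-α, the variants moved in both directions. In PRTN vs TN, 13 of 61 members were called higher (23.9% of all genes) and 6 lower (16.7% of all genes). In BUTN vs TN, 13 were called higher (23.1% of all genes) and 9 lower (14.8% of all genes). In TNPR vs TN, 7 were called higher (24.9% of all genes) and 9 lower (16.9% of all genes). In TNBU vs TN, 5 were called higher (25.0% of all genes) and 8 lower (16.5% of all genes). The shares of members called were 21.3% and 9.84% for PRTN, 21.3% and 14.8% for BUTN, 11.5% and 14.8% for TNPR, and 8.2% and 13.1% for TNBU, at or below the share of all genes in each case. The 4 comparisons share the TN libraries. With the library size alone as the scaling, the median log2 fold change of all genes moved from between 0.08 and 0.12 to between 0.23 and 0.29, and the share of higher among all calls from between 58.9% and 60.9% to between 68.5% and 72.0%. H1F0, H2AFJ, HIST1H3H and HIST3H2BB were called higher in all 4, and H2AFY2, H2AFY, H2AFZ, H2AFX, HIST1H2BK and H1FX-AS1 were called lower in all 4.

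**Figure D1:**
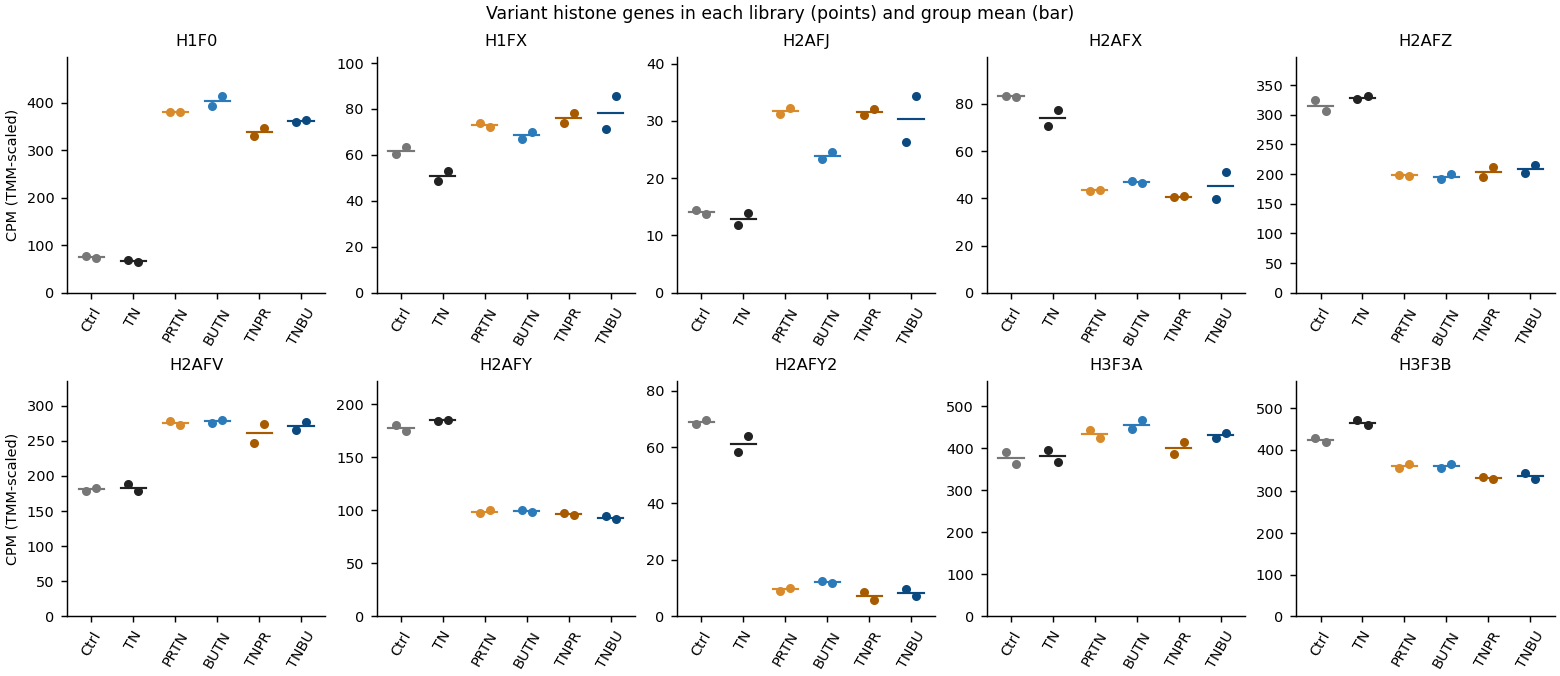
Level of the 10 expressed variant histone genes in each library, in TMM-scaled CPM on linear axes from 0, with points for the 2 replicates and a bar for the group mean. H1F0 lies at 65.3 to 77.0 CPM in the 4 libraries without an SCFA and at 330.0 CPM or more in the 8 libraries with one, and H2AFY2 goes from 58.2 CPM or more to 12.5 CPM or less.

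Among the linker histones over 5 CPM, H1F0 rose more than H1FX. H1F0 encodes H1.0, a replication-independent linker histone known from differentiated and resting cells, and it is known to be induced by butyrate. H1F0 (ENSG00000189060.5, chr22:37805229-37807432, plus strand, a gene of a single exon) was at 77.0 and 73.2 CPM for Ctrl, 68.0 and 65.3 for TN, 382 and 381 for PRTN, 394 and 414 for BUTN, 330.0 and 347 for TNPR, and 359.7 and 365 for TNBU. Every library with an SCFA was above every library without one. The log2 fold change against TN was 2.52 (PRTN), 2.6 (BUTN), 2.34 (TNPR) and 2.44 (TNBU), with a standard error of 0.06 each and adjusted p-values from 5.22e-11 to 1.03e-10 (limma-voom). Its share of the counts of all 10 H1 genes, clustered and variant, was between 53.3% and 57.9% in the libraries of Ctrl and TN and between 80.8% and 85.3% in the libraries with an SCFA.

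H1FX, which encodes the linker variant H1X, changed less. It was at 48.5 and 53.1 CPM for TN, 74.1 and 72.3 for PRTN, 67.0 and 70.0 for BUTN, 73.7 and 78.3 for TNPR, and 71.3 and 85.5 for TNBU. The groups did not overlap, but the gene passed the fold threshold only in TNBU, with a log2 fold change of 0.62 (standard error 0.09, limma-voom adjusted p = 5.02e-05), against 0.53, 0.43 and 0.58 for PRTN, BUTN and TNPR. The call in TNBU rested on both groups' libraries. The log2 fold change was 0.54 without TN replicate 1 and 0.47 without TNBU replicate 2, both under the threshold, and 0.62 in TNPR without TN replicate 2, over it. With library size alone it also passed in PRTN (0.68) and TNPR (0.75).

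The antisense gene H1FX-AS1 (chr3:129315392-129326225, plus strand) overlaps H1FX (chr3:129314771-129316286, minus strand), and it went the other way. It was at 3.10 and 2.44 CPM for TN, 1.55 and 1.02 for PRTN, 1.59 and 1.65 for BUTN, 1.19 and 1.29 for TNPR, and 0.666 and 1.27 for TNBU. The log2 fold change was -1.11 (PRTN), -0.76 (BUTN), -1.14 (TNPR) and -1.55 (TNBU), with adjusted p-values of 0.003, 0.0204, 0.00263 and 0.000656 (limma-voom). The kit keeps the strand, but the strand setting of the counting is not given in the sources used here, so reads could be exchanged between both genes. In BUTN the call ended without TN replicate 1 (-0.62), without BUTN replicate 1 (-0.75) and without BUTN replicate 2 (-0.80), with DESeq2 (adjusted p = 0.101) and with library size alone (-0.60, adjusted p = 0.059).

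H1FOO, the linker histone of the oocyte, was at or under 0.25 CPM in every library. It held 1 count over both TN libraries and 13 over both BUTN libraries, a ratio of 11.9 per total counts (exact 95% interval 1.79 to 505, counting error only), and BUTN was the group in which it was called. DESeq2 did not call it (adjusted p = 0.161), and the call was lost without TN replicate 2 (1.84) or BUTN replicate 1 (2.30).

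**Figure D2:**
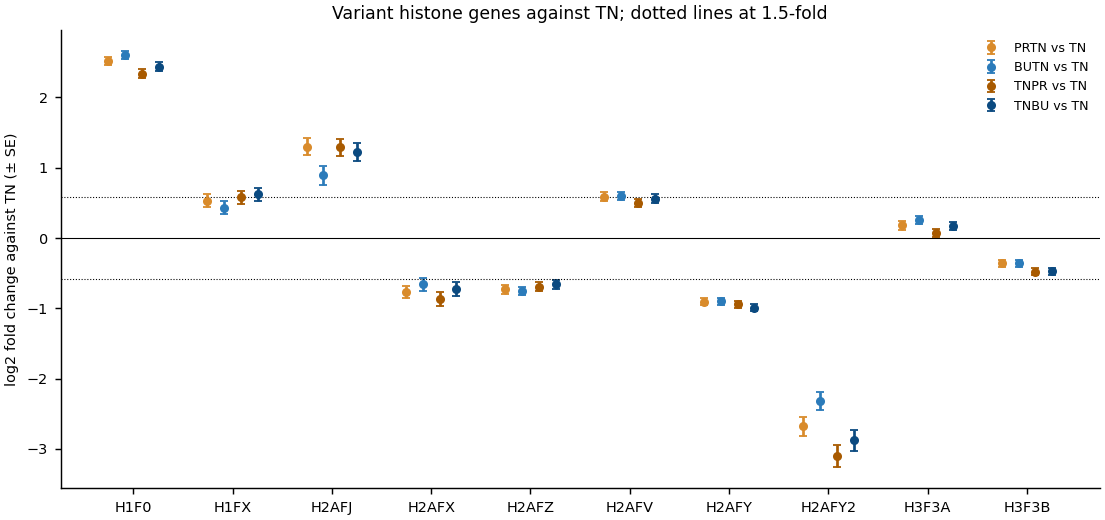
Log2 fold change against TN of the 10 expressed variants in PRTN, BUTN, TNPR and TNBU, with bars of 1 standard error from limma-voom and dotted lines at the 1.5-fold threshold. H1F0 lies at 2.34 to 2.6 and H2AFY2 at -3.10 to -2.32, and the 4 SCFA groups lie together for most genes.

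The genes for H2A.Z parted. H2A.Z is an H2A variant of promoters and enhancers, made from H2AFZ (H2A.Z.1) and H2AFV (H2A.Z.2), which encode nearly the same protein. Their promoters are shown because both genes moved in opposite directions. The 250 bases before the start in RefSeq (GRCh38.p14) were searched for CCAAT, for the TATA box TATAAA, and for the GC box GGGCGG on both strands, and capitals mark each match. No motif shares its place with another in these windows.
H2AFZ, chr4:99950276-99950525, minus strand: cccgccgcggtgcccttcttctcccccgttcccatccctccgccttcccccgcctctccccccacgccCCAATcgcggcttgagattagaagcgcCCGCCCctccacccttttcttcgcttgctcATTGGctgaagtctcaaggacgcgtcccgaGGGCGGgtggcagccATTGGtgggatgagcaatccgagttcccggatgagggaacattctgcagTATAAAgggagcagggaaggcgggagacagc
H2AFV, chr7:44848088-44848337, minus strand: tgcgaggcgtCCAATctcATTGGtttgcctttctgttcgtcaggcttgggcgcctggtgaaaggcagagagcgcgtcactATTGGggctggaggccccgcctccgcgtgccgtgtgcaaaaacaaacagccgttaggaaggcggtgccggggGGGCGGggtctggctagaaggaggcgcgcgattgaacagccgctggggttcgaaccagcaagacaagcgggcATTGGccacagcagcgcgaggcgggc
H2AFZ held 3 matches of CCAAT, 1 TATA box and 2 GC boxes in this window, and H2AFV held 4 of CCAAT, 0 TATA boxes and 1 GC box. Of all 35116 promoters in the table, 32.0% held CCAAT, 10.7% a TATA box and 42.6% a GC box. Of the 65 promoters of clustered members the shares were 84.6%, 66.2% and 26.2%, and of the 21 promoters of variants, some of which have several, they were 76.2%, 19.0% and 52.4%.

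H2AFZ was at 325 and 306 CPM for Ctrl, 326 and 331 for TN, 199 and 197 for PRTN, 191 and 200.5 for BUTN, 195 and 212 for TNPR, and 201 and 215 for TNBU. H2AFV was at 179 and 183 CPM for Ctrl, 188 and 179 for TN, 279 and 273 for PRTN, 276 and 279.8 for BUTN, 247 and 274 for TNPR, and 265 and 277 for TNBU. Each gene's libraries with an SCFA lay apart from those without one, lower for H2AFZ and higher for H2AFV. The log2 fold change of H2AFZ against TN was -0.73, -0.75, -0.69 and -0.66 in PRTN, BUTN, TNPR and TNBU (standard error 0.06, largest adjusted p = 1.14e-06 from limma-voom), and it was called in all 4. With the library size alone as the scaling it was under 1.5-fold in PRTN (-0.58), TNPR (-0.52) and TNBU (-0.47), still lower. That of H2AFV was 0.59, 0.60, 0.50 and 0.56 (standard error 0.06, largest adjusted p = 1.36e-05 from limma-voom), on the threshold of 1.5-fold, so that it was called in PRTN and BUTN and not in TNPR and TNBU. Leaving out a library moved H2AFV below the threshold at 0.52 (PRTN vs TN without TN replicate 2), 0.54 and 0.57 (without PRTN replicate 1 and 2), 0.53 (BUTN vs TN without TN replicate 2), and 0.58 and 0.57 (without BUTN replicate 1 and 2). It was also below in PRTN and BUTN with no filter (0.57 in both) and with the default filter of edgeR (0.55 and 0.56), and in PRTN with only the groups compared (0.57). With library size alone it was called in TNPR (0.67) and TNBU (0.76) too.

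Within a library, which no scaling between libraries can change, there were 1.67 to 1.85 counts of H2AFZ for each count of H2AFV in Ctrl and TN. The ratio was 0.692 to 0.722 in PRTN and BUTN and 0.758 to 0.792 in TNPR and TNBU. The sum of both genes was 512 ± 3.02 CPM (SD, n = 2) for TN, 474 ± 5.69 for PRTN, 473 ± 9.93 for BUTN, 464 ± 30.7 for TNPR and 479 ± 18.4 for TNBU, so it moved less than either gene.

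The macroH2A genes fell together. MacroH2A is an H2A variant with a large globular domain, found on the inactive X chromosome and other silent chromatin. H2AFY2 encodes macroH2A2 (ENSG00000099284.13, chr10:70052544-70112282, plus strand). It was at 68.1 and 69.6 CPM for Ctrl, 58.2 and 63.9 for TN, 9.0 and 10.1 for PRTN, 12.5 and 11.9 for BUTN, 8.74 and 5.69 for TNPR, and 9.63 and 7.17 for TNBU. Every library with an SCFA was far below every library without one. H2AFY2 changed by -2.68 (standard error 0.14) on the log2 scale for PRTN, -2.32 (0.13) for BUTN, -3.10 (0.16) for TNPR and -2.88 (0.15) for TNBU, with adjusted p-values from 8.1e-09 to 3.4e-08 (limma-voom), the largest fall among variants over 5 CPM in each group.

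H2AFY, which encodes macroH2A1 (chr5:135334381-135399914, minus strand), was at 184 and 185 CPM for TN, 97.3 and 99.7 for PRTN, 100.1 and 98.5 for BUTN, 97.3 and 95.2 for TNPR, and 94.5 and 91.3 for TNBU. The libraries with an SCFA lay close together and far from TN. Its log2 fold change was -0.91, -0.90, -0.94 and -0.99 (standard error 0.05, largest adjusted p = 3.43e-08 from limma-voom). The counts of H2AFY for each count of H2AFY2 were 2.52 to 3.17 in the libraries of Ctrl and TN and 8.04 to 16.7 with an SCFA. The sum of both macroH2A genes was 246 ± 4.51 CPM (SD, n = 2) in TN and 101 to 111 CPM on average in the SCFA groups.

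**Figure D3:**
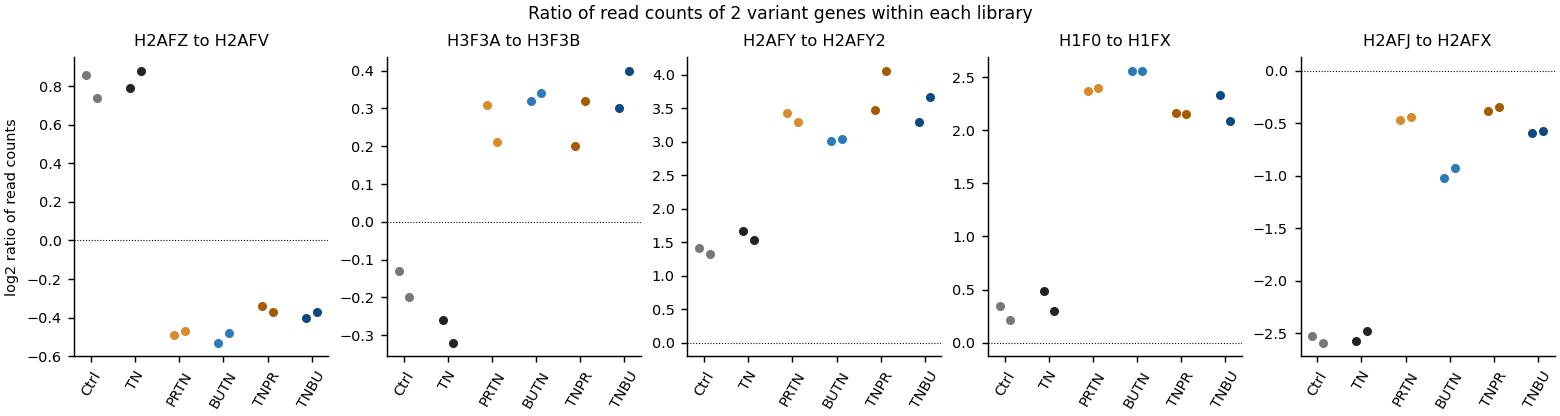
Log2 ratio of the read counts of 2 variant genes within each library, 1 point per library, with the dotted line at equal counts. H2AFZ to H2AFV goes from 0.74 to 0.88 without an SCFA to -0.53 to -0.34 with one, and H2AFY to H2AFY2 from 1.33 to 1.66 to 3.01 to 4.06.

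H2AFX and H2AFJ, a pair of H2A variants, also parted. H2AFX was at 83.2 and 83.1 CPM for Ctrl, 70.6 and 77.6 for TN, 43.2 and 43.7 for PRTN, 47.2 and 46.7 for BUTN, 40.5 and 40.8 for TNPR, and 39.6 and 51.0 for TNBU. H2AFX was called lower in all 4 groups, with log2 fold changes of -0.77, -0.66, -0.87 and -0.72 (standard errors 0.09 to 0.1, largest adjusted p = 6.85e-05 from limma-voom). In TNBU it fell short of the threshold without TNBU replicate 1, at -0.57, and with the library size alone it did so in BUTN (-0.50) and TNBU (-0.52). H2AFJ, which encodes H2A.J, known to build up in senescent fibroblasts, was at 14.4 and 13.8 CPM for Ctrl, 11.9 and 14.0 for TN, 31.2 and 32.3 for PRTN, 23.3 and 24.6 for BUTN, 31.1 and 32.1 for TNPR, and 26.3 and 34.3 for TNBU. Every SCFA library was above every library without an SCFA, by a log2 fold change against TN of 1.30, 0.89, 1.29 and 1.22 (standard errors 0.12 to 0.13, largest adjusted p = 7.11e-05 from limma-voom). For each count of H2AFX there were 0.166 to 0.18 counts of H2AFJ in Ctrl and TN and 0.494 to 0.786 with an SCFA.

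The 2 genes for H3.3 stayed within the threshold. H3.3 is the H3 placed throughout the cell cycle, at active genes and at telomeres among others, and H3F3A and H3F3B encode the same protein. H3F3B was at 472 and 459 CPM for TN, 357 and 366 for PRTN, 356 and 367 for BUTN, 335 and 331 for TNPR, and 345 and 329 for TNBU. Its log2 fold change was -0.36, -0.36, -0.48 and -0.47 (standard error 0.05, largest adjusted p = 3.7e-05 from limma-voom), under 1.5-fold though the groups did not overlap. H3F3A was at 395 and 367 CPM for TN, 442 and 423 for PRTN, 445 and 467 for BUTN, 385 and 414 for TNPR, and 424 and 436 for TNBU, with log2 fold changes of 0.18, 0.26, 0.07 and 0.17. Only TNPR overlapped TN. H3F3A shares reads with the processed copy H3F3AP4, and with the counts of both summed the log2 fold changes were 0.17, 0.24, 0.06 and 0.15. The small change in TNPR had no fixed sign, at -0.02 without TN replicate 2 and -0.04 without TNPR replicate 2. There were 0.80 to 0.912 counts of H3F3A for each of H3F3B in the libraries of Ctrl and TN and 1.15 to 1.32 with an SCFA.

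Compared per kilobase of all annotated exons, the order of the variants changed at the top. In TN the order was H2AFZ at 145 ± 1.44 CPM per kb (SD, n = 2), H3F3A at 99.7 ± 5.18 and H3F3B at 75.9 ± 1.48, with no overlap between neighbours. In PRTN it was H1F0 at 173 ± 0.389, H3F3A at 113 ± 3.55 and H2AFZ at 87.2 ± 0.547. Per kilobase of the longest transcript H3F3A came first in both groups, at 205 ± 10.6 in TN and 232 ± 7.29 in PRTN, and H1F0 was the second in PRTN at 173.

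The other tested variants were near the limit of counting. H3F3C, H2BFM and H2BFS were at or under 0.307 CPM in every library. H2BFM, an X-linked H2B gene, held 14 counts over both TN libraries, 2 in BUTN and 3 in TNPR, where it was called lower. Per total counts its level was 0.131 of TN in BUTN (exact 95% interval 0.0144 to 0.569, counting error only) and 0.203 in TNPR (0.0375 to 0.728). DESeq2 called neither (adjusted p = 0.114 and 0.173), and they were lost without BUTN replicate 1 (-1.95) and without TNPR replicate 2 (-1.46). H2BFS, whose sequence is close to that of HIST1H2BK, held 15.9 counts in TN and 5.17 in TNBU, where it was called lower by limma-voom and not by edgeR (adjusted p = 0.101) or DESeq2 (0.274), nor without either TN replicate (-2.48 and -2.34) or TNBU replicate 1 (-0.75).

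**Figure D4:**
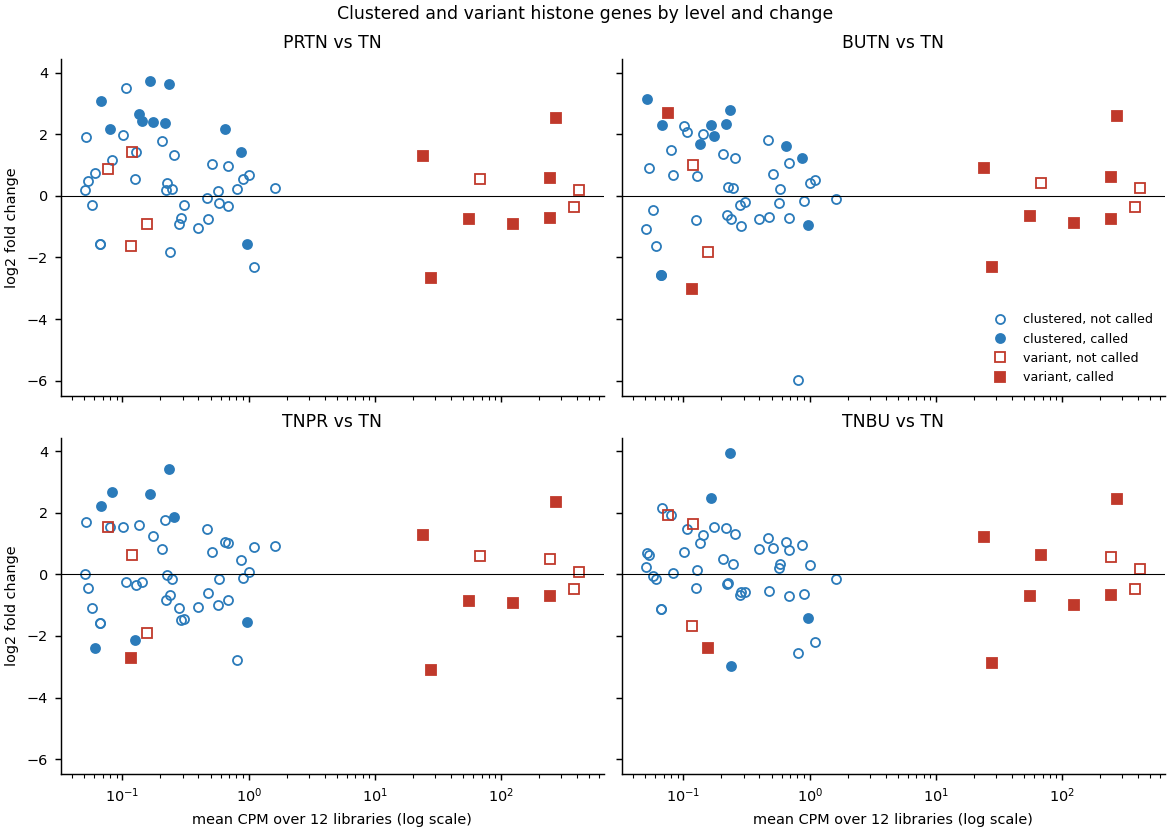
Log2 fold change against TN (vertical) by the mean CPM over 12 libraries (horizontal, log scale) for each tested clustered gene (circles) and variant gene (squares), filled where called. The clustered genes lie at the low end, where called genes have large fitted changes from few counts, and 10 variants lie apart on the right.

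The clustered genes that were called rested on few counts. Of the 45 tested, 10 were called higher and 1 lower in PRTN, 9 and 3 for BUTN, 5 and 3 for TNPR, and 2 and 2 for TNBU. The shares called higher were 22.2%, 20%, 11.1% and 4.44%, beside 23.9%, 23.1%, 24.9% and 25.0% of all genes, and those called lower 2.22%, 6.67%, 6.67% and 4.44%, beside 16.7%, 14.8%, 16.9% and 16.5%. In 8 of 11, 9 of 12, 6 of 8 and 2 of 4 of these calls one of both groups held at most 3 counts over its libraries. The median log2 fold change of the 45 was 0.53, 0.40, -0.11 and 0.29, beside 0.09, 0.08, 0.12 and 0.09 over all genes. With the genes that had a group at 0 counts put at the 3-count bound over the group, it was 0.48, 0.40, -0.08 and 0.25. With library size alone the median in TNPR was 0.06, so its sign depends on the scaling. By class in PRTN, 1 of 3 H1 genes, 1 of 10 H2A, 5 of 15 H2B, 2 of 9 H3 and 1 of 8 H4 genes were called higher. In TNBU the classes gave 1 H2B and 1 H3 gene.

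HIST1H1C (the linker histone H1.2, chr6:26055740-26056470, minus strand) held 16 and 11 counts for TN, 57 and 35 for PRTN, 40 and 37 for BUTN, 26 and 18 for TNPR, and 24 and 33 for TNBU. In CPM the libraries of PRTN, BUTN and TNBU were all above those of TN, while TNPR overlapped TN. The log2 fold change was 1.42 (standard error 0.37, limma-voom adjusted p = 0.00563) in PRTN and 1.22 (0.38, adjusted p = 0.0156) in BUTN, and it did not pass in TNPR (0.45, adjusted p = 0.379) or TNBU (0.96, adjusted p = 0.0532). Without TN replicate 2 it no longer passed in PRTN (1.1) or BUTN (0.90), and without BUTN replicate 1 it no longer passed in BUTN (1.09). DESeq2 did not call it in BUTN (adjusted p = 0.0591), and in TNBU it passed with edgeR (adjusted p = 0.0452), with library size alone (0.0242) and with a filter that any 0 fails (0.0403).

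HIST1H2BG, an H2B gene whose annotated transcript ends just past the stem-loop, held 9 and 6 counts for TN, 53 and 35 for PRTN, 24 and 34 for BUTN, 21 and 17 for TNPR, and 14 and 20 for TNBU. All SCFA libraries held more than either TN library. It rose by a log2 fold change of 2.18 (standard error 0.39, limma-voom adjusted p = 0.000428) in PRTN and 1.62 (0.41, adjusted p = 0.00489) in BUTN, and was at 1.06 and 1.04 for TNPR and TNBU (adjusted p = 0.0506 and 0.0583). Without TN replicate 2 the log2 fold change in BUTN was 1.28 and no longer passed. With edgeR, library size alone and a filter that any 0 fails it passed in TNPR and TNBU (adjusted p = 0.0265 to 0.0399), and with the default filter of edgeR in TNPR.

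HIST1H2BK was the clustered gene called lower in all 4 groups, though barely in BUTN, with 53.5 and 40.6 counts for TN, 30.2 and 11.8 for PRTN, 30.7 and 27.7 for BUTN, 13.8 and 25.1 for TNPR, and 11.9 and 27.1 for TNBU. None of these groups overlapped TN in CPM, but replicates of PRTN, TNPR and TNBU lay far apart, and the counts are not whole, as RSEM gives where reads are divided between genes. The log2 fold change was -1.56, -0.95, -1.56 and -1.43 (standard errors 0.38 to 0.43, adjusted p = 0.007, 0.0499, 0.00711 and 0.0124 from limma-voom). The call in BUTN was lost in 9 of 15 alternatives, among them edgeR (adjusted p = 0.0717), DESeq2 (0.174), relative log expression size factors (0.0536), library size alone (0.0974), no filter (0.0775), the replicate block (0.0646), and without TN replicate 1 (-0.76) or BUTN replicate 1 (-1.1) or 2 (-0.83). In the other groups it was lost without PRTN replicate 2 (-0.99), without TNPR replicate 1 (-1.11), and without TNBU replicate 1 (-0.94) or TN replicate 1 (-1.23).

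**Figure D5:**
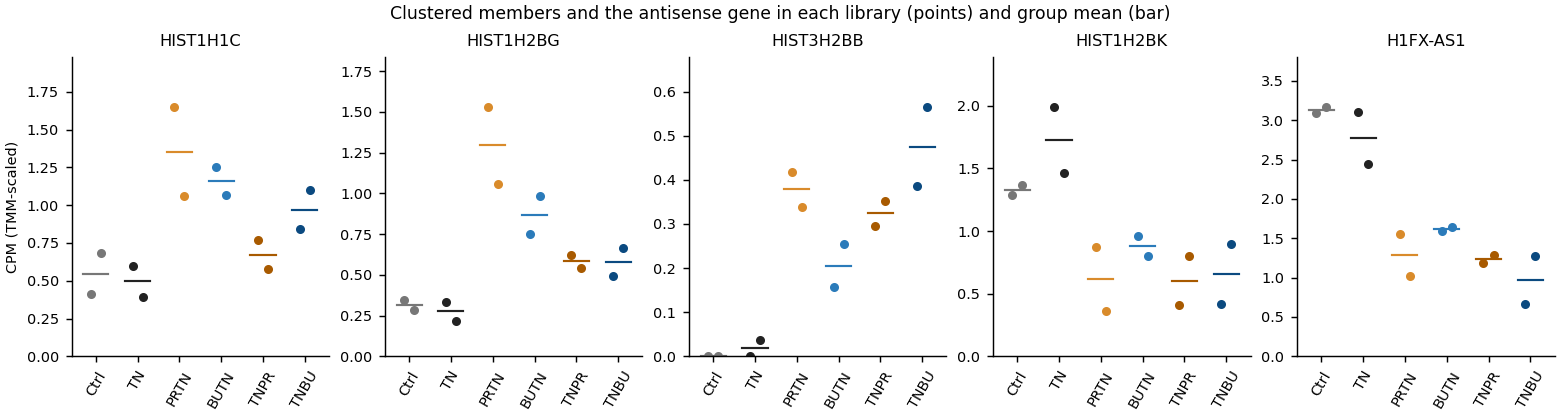
Level in TMM-scaled CPM of HIST1H1C, HIST1H2BG, HIST3H2BB, HIST1H2BK and H1FX-AS1 in each library, on linear axes from 0, with a bar for the group mean. Every panel is at 3.17 CPM or less, and HIST3H2BB goes from 0.0359 CPM or less without an SCFA to 0.156 CPM or more with one.

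HIST3H2BB and HIST1H3H were called higher in all 4 groups and are named here after their values were seen. HIST3H2BB is an H2B gene of the small HIST3 cluster. The furthest annotated end of its transcripts lies 4594 bases past the stop codon along the genome. It held 0 counts in both Ctrl libraries, 0 and 1 for TN, and 14.4 and 11.1 for PRTN. Its counts were 5.0 and 8.82 for BUTN, 10 and 11 for TNPR, and 11 and 17 for TNBU. No library without an SCFA held more than 1 count, and each with one held at least 5. The ratio to TN per total counts was 23.5 for PRTN (exact 95% interval 3.86 to 964), 12.8 for BUTN (1.95 to 541), 19.9 in TNPR (3.2 to 824) and 29.9 in TNBU (4.94 to 1223), for counting error only. The call in BUTN was lost with DESeq2 (adjusted p = 0.0785) and without TN replicate 1 (1.98). HIST1H3H, an H3 gene, held 3 and 1 counts for Ctrl, 0 and 1 for TN, 14 and 13 for PRTN, 3 and 7 for BUTN, 8 and 4 for TNPR, and 3 and 7 for TNBU. Its ratio to TN was 24.4 in PRTN (4.02 to 999) and between 9.14 and 11.4 in the other groups, but the lower library of BUTN and of TNBU held no more counts than the higher of Ctrl. Its calls in BUTN, TNPR and TNBU were lost with DESeq2 (adjusted p = 0.163, 0.115 and 0.131), without TN replicate 1 (1.5, 1.81 and 1.69), and without BUTN replicate 2 (1.78), TNPR replicate 1 (2.14) and TNBU replicate 2 (1.93), and in BUTN and TNBU also with only the groups compared.

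HIST1H2BL was at 0 in both TN libraries and held 9.5 counts over PRTN, 4.99 over BUTN and 4.57 over TNPR. It was not silent in Ctrl, as its log2 fold change in TN vs Ctrl ranged from -3.8 to 0.03 across settings, without a call. With TN put at a floor of 3 counts over the group, it was 2.86-fold, 1.52-fold and 1.45-fold higher. The lower bound of the exact interval for counting error was 2.03 in PRTN, but 0.838 in BUTN and 0.869 in TNPR. The intervals of BUTN and TNPR thus include no change from TN. In BUTN and TNPR edgeR did not call HIST1H2BL (adjusted p = 0.0628 and 0.0588), and leaving out any library of the groups compared ended the call. Called higher in both PRTN and BUTN were also HIST1H2AE, HIST1H2BF and HIST1H4H, each, named after the values were seen, with 2 or 3 counts over TN and 11 to 26 over the SCFA group. DESeq2 called none of these 3 in either group, and the calls in BUTN were lost without either TN replicate. In PRTN those of HIST1H2AE and HIST1H4H were lost without TN replicate 2, and that of HIST1H4H also without TN replicate 1 or PRTN replicate 1.

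HIST1H3D is listed under 2 gene identifiers, each counted as a member. Of these, ENSG00000282988.1 was called higher in TNPR, with 29.7 counts over TNPR and 5.79 over TN. It is the clustered member in which no stem-loop was found. The other identifier, ENSG00000197409.7, was not called in any SCFA group. The counts are not whole, so reads may have been divided between genes, and no alternatives are given for this call. Some identical copies could not be told apart. HIST2H2AA3 and HIST2H2AA4 took the same reads in changing shares, so that HIST2H2AA4 was at 0 in 4 libraries. Their sum was 66.4 and 66.9 counts for TN, 77.5 and 48.4 for PRTN, 37.0 and 34.0 for BUTN, 74.9 and 52.8 for TNPR, and 50.5 and 41.8 for TNBU. Summed, they were called lower in BUTN (log2 fold change -1.19, standard error 0.26, adjusted p = 0.00208 from limma-voom) and TNBU (-0.64, 0.25, adjusted p = 0.0433), and not in PRTN (-0.42) or TNPR (-0.33). HIST2H3A and HIST2H3C, called lower in BUTN with 6.5 counts each over TN and 0.68 over BUTN, are such a pair too, and summed they were called lower in PRTN (-1.77), BUTN (-3.14) and TNPR (-1.73), from 13 counts or fewer over each of these groups and TN.

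The annotated end of a clustered transcript went with its level. Of the 66 clustered members with a stem-loop, 17 have an annotated transcript that ends over 100 bases past the stop codon. Their mean CPM over 12 libraries had a median of 0.288 (0 to 1.01), and 16 of 17 were tested. In the other 49, whose annotated transcripts end just past the stem-loop, the median was 0.0316 (0 to 0.97), and 22 were tested. No test was made of this difference. The ends are distances along the genome in GENCODE 44, while the counts were made on GENCODE 26. CPM was not divided by length here. Of the genes described, HIST3H2BB and HIST1H3H are of the first kind and HIST1H1C, HIST1H2BG and HIST1H2BK of the second.

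Some genes of the machinery of histone messenger RNA were called in both directions. Of 18 genes of its 3′ end processing and decay, 4, 3, 3 and 4 were called higher and 2, 2, 2 and 3 lower in PRTN, BUTN, TNPR and TNBU, with a median log2 fold change between -0.13 and 0.02. That is 16.7% to 22.2% higher and 11.1% to 16.7% lower, beside 23.1% to 25.0% and 14.8% to 16.9% of all genes. SLBP, which binds the stem-loop, was at 161 CPM on average in TN and 252 to 275 in the SCFA groups, with log2 fold changes of 0.78, 0.65, 0.74 and 0.70 (largest adjusted p = 7.82e-07 from limma-voom). NPAT, the activator of clustered histone transcription, changed by 0.83, 0.67, 0.75 and 0.68, and LSM10, of the U7 particle, by 1.01, 0.77, 1.06 and 0.81. CPSF2, a subunit of the cleavage complex, fell by 0.84, 0.89, 0.82 and 0.95 on the log2 scale, and MBLAC1, a nuclease for histone messenger RNA, was also called lower in all 4 groups.

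Genes of histone chaperones and deposition, a list chosen with earlier results of these data known, were lower more often than higher. Of 25, 9, 9, 9 and 10 were called lower and 1, 1, 1 and 2 higher, which is 36.0% to 40.0% lower beside 14.8% to 16.9% of all genes and 4.0% to 8.0% higher beside 23.1% to 25.0%, with a median log2 fold change of -0.43, -0.37, -0.47 and -0.47. NASP, a chaperone of H1 and of H3 with H4, was at 381 CPM on average in TN and 174 to 206 in the SCFA groups, and IPO4, which carries H3 and H4 into the nucleus, at 96.3 and 39.1 to 40.5. SRCAP, the remodeller that places H2A.Z, was at 85.9 and 38.2 to 44.9 CPM. Its replicates lay apart in TNPR (44.9 ± 10.2 CPM, SD, n = 2) and TNBU (39.0 ± 15.4). ANP32E, which removes H2A.Z, fell in PRTN, TNPR and TNBU (log2 fold change -0.67, -0.88 and -0.79) and was at -0.52 in BUTN, under the fold threshold. CENPA, the centromeric H3, and HJURP, its chaperone, were called lower in all 4 groups. ASF1B, the chaperone of H3 and H4 in dividing cells, went the other way, from 62.3 CPM to between 115 and 132.

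Of 25 genes of S phase and E2F targets, 5, 2, 5 and 4 were called higher and 3 lower in each group, with a median between -0.05 and 0.05. The shares were 8.0% to 20% higher and 12% lower, below those of all genes (23.1% to 25.0% and 14.8% to 16.9%). RRM2 and CCNE1 were higher in all 4, and MCM7, TYMS and CCNA2 lower in all 4. Of 12 genes of cell cycle arrest, 5, 3, 6 and 6 were called higher and 4, 3, 4 and 4 lower. That is 25.0% to 50% higher and 25.0% to 33.3% lower, beside 23.1% to 25.0% and 14.8% to 16.9% of all genes. CDKN1A, the p21 inhibitor of cyclin-dependent kinases, was at 38.6 CPM on average in TN and 230.3 to 288 in the SCFA groups, with log2 fold changes between 2.58 and 2.90. CDKN2D and BTG2 were also called higher in all 4 groups. CDKN1B, CDKN1C and CDKN2B were called lower in all 4, CDKN2B with log2 fold changes of -1.45, -1.17, -1.67 and -1.43. In TN vs Ctrl none of the genes of these lists was called, other than the inhibitor CDKN2B (log2 fold change 0.92, adjusted p = 3.33e-05 from limma-voom).

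No member was called between the times or between the SCFAs, whose doses differed. In TNPR vs PRTN 0 of 61 members were called (0.16% of all genes) and in TNBU vs BUTN 0 (0.267% of all genes). In PRTN vs BUTN 0 members were called (0.168% of all genes) and in TNPR vs TNBU 0 (0.00822% of all genes). At an unadjusted p under 0.05 there were 15, 7, 9 and 4 members with limma-voom, 8, 8, 7 and 2 with edgeR and 5, 5, 3 and 0 with DESeq2, and neither edgeR nor DESeq2 called any. The share of all genes at that threshold is not given here. In TNPR vs PRTN the 45 clustered members had a median log2 fold change of -0.59, beside 0.00 over all genes, and 12 were above 0. That median was -0.15 in TNBU vs BUTN, 0.33 in PRTN vs BUTN and -0.23 in TNPR vs TNBU. H1F0 differed by -0.17 (2 standard errors either way -0.27 to -0.07) between TNPR and PRTN and by -0.08 (-0.18 to 0.02) between PRTN and BUTN. H2AFJ, at 31.8 ± 0.733 CPM (SD, n = 2) in PRTN and 24.0 ± 0.865 in BUTN, differed by 0.41 (adjusted p = 0.114 from limma-voom). H2AFY2 differed by -0.56 between TNBU and BUTN (adjusted p = 0.169) and by -0.42 between TNPR and PRTN (adjusted p = 0.409). The difference between propionate and butyrate in the change from the earlier to the later time was called for 0 members and 0.0% of all genes with limma-voom, with 6, 5 and 2 members at an unadjusted p under 0.05 by limma-voom, edgeR and DESeq2.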

How the data were processed

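Total RNA of HK2 cells was made into stranded, poly(A)-selected libraries. Per the labels the tools were FastQC 0.11.5, STAR 2.6.1a and RSEM on GRCh38, and the authors deposited expected counts per gene (GENCODE 26). The strand setting and the RSEM version are not given in the sources used here. Groups were taken from the sample titles, and doses and times from the methods of the study, since the treatment text of the labels names other agents. The study describes the 2 libraries of each group as biological replicates.

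Genes with a geometric mean of count plus 1, less 1, of at least 1 over 12 libraries (24342 of 58278) were fitted with limma-voom (limma 3.58.1, TMM from edgeR 4.0.16) with 6 group means. Counts were used as deposited, and rounded to whole numbers for DESeq2 1.42.0. A call needed a change over 1.5-fold and a Benjamini-Hochberg adjusted p under 0.05. The code was tested on simulated data. Library totals were 27269986 to 33851130 counts. Intervals and floors (3 counts) cover counting error only.

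Named with values were every tested variant, clustered members with a mean of 5 CPM in a group, and, per comparison, the 5 largest rises and falls among called members whose higher group reached 1 CPM and whose groups did not overlap. The members and the gene lists were chosen with earlier results of these data known. Positions, exons and stop codons came from GENCODE 44, and promoters from RefSeq GRCh38.p14.

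Alternatives were edgeR and DESeq2, other scalings and filters, only the groups compared, the replicate block, an unadjusted p, a 2-fold threshold, leaving out each library, members with whole counts in every library (within 0.005) and, chosen after seeing the data, near-identical copies summed.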

Additional observations from a re-analysis of the deposited data

How the results depend on the processing

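No called log2 fold change of the members described above changed sign under any alternative that was run. This leaves out HIST1H3D, HIST2H2AA3, HIST2H2AA4, HIST2H3A and HIST2H3C, and the genes of the lists, for which it was not followed. With library size alone the median of the tested clustered members in TNPR went from -0.11 to 0.06, and that of the variants from -0.09 to 0.06 in PRTN, from -0.05 to 0.10 in BUTN and from -0.15 to 0.05 in TNBU. DESeq2 called 7, 4 and 3 members higher in PRTN, BUTN and TNPR and 5 lower in BUTN. Library size alone gave 12 higher in TNPR and 11 in TNBU. A filter that any 0 fails gave 7 higher in BUTN and 4 in TNPR, and the default filter of edgeR 8 in BUTN. Members with whole counts in every library gave 7, 7, 2 and 2 higher and 1, 2, 3 and 1 lower in PRTN, BUTN, TNPR and TNBU. A 2-fold threshold left 3, 4 and 5 lower in PRTN, BUTN and TNBU. An unadjusted p gave 10 higher in TNBU, 11 and 16 lower in PRTN and TNPR, 2 lower in TN vs Ctrl, and in either direction 12 in TNPR vs PRTN, 3 in TNBU vs BUTN, 7 in PRTN vs BUTN, 4 in TNPR vs TNBU and 5 for the difference between the SCFAs in the change with time. With only the groups compared in the fit, 1 member (HIST2H2AA4, a gene with an identical copy) was called in PRTN vs BUTN.

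Leaving out 1 library gave 7 to 13, 5 to 9, 5 to 6 and 3 to 6 members higher and 5 to 7, 4 to 10, 7 to 8 and 5 to 9 lower in PRTN, BUTN, TNPR and TNBU, and 0 in every other comparison. Without TN replicate 2 there were 7 higher in PRTN and 5 in BUTN, and without TN replicate 1 there were 8 in BUTN. Without BUTN replicate 1 there were 4 lower in BUTN, without TNBU replicate 2 there were 3 higher in TNBU, and without TNBU replicate 1 there were 5 lower. The cause of these changes was not tested.

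Same-numbered libraries did not deviate together (correlations -0.0347 to 0.0658 over 15 pairs of groups). With the replicate block there were 13, 12, 6 and 6 members higher and 6, 9, 9 and 8 lower in PRTN, BUTN, TNPR and TNBU, and 0 in the other comparisons. Clustered genes held too few counts for firm values.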
